A study of Homo sapiens with 12 samples.

Results

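The genes described are 10 components of the Notch pathway, taken by symbol out of 23064 gene symbols in the deposited tables: the receptors NOTCH1, NOTCH2 and NOTCH3, the ligands JAG1, JAG2 and DLL1, the coactivator MAML1, and the target genes HES1, HEY1 and NRARP. All 10 were in the tables of both cell lines and passed the filter on low counts in both. RNA was sequenced from CAL-29 and 5637 cells, established human bladder carcinoma cell lines labelled as wild type, on day 3 after transfection with a control siRNA (siCtrl) or an siRNA against KMT9α (siKMT9α), the catalytic subunit of the histone methyltransferase KMT9. There were 3 libraries for each siRNA in each line, 12 in all, and nothing in the labels says that the libraries of a group came from separate cultures, so p-values measure the spread between these samples, which may be technical. A single siRNA sequence stands for the depletion. Its column name, si270, is linked in the paper neither to siKMT9α#1 nor to siKMT9α#2, although the results there speak of siKMT9α#1 for these data. Transfection reagent, siRNA concentration and culture medium differed between the lines and cannot be told apart from the line.

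Notch receptors are membrane proteins that are cut when a Jagged or Delta ligand on a neighbouring cell binds them. Their intracellular domain then enters the nucleus, where it joins the DNA-binding protein RBPJ and a Mastermind coactivator such as MAML1 and turns on genes of the HES and HEY repressor families and NRARP, which limits the signal in turn. In the urothelium the pathway takes part in differentiation, and inactivating mutations of its genes have been described in bladder carcinoma.

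Total counts were between 24479348.5 and 35151256.5 per library. Between replicates, the chi-square of the counts divided by its degrees of freedom was 2.25 to 12.3, where sampling noise alone gives values near 1. The widest gaps were those of siCtrl replicate 1 of CAL-29 cells to the other siCtrl libraries of that line, at 8.18 and 12.3. N6AMT1, which encodes KMT9α, was lower with siKMT9α, by log2 fold changes of -2.0 (CAL-29, edgeR adjusted p = 1.38e-10) and -2.22 (5637, edgeR adjusted p = 2.06e-15), and each siKMT9α library lay below every siCtrl library of its line. TRMT112, the partner subunit KMT9β, had log2 fold changes of 0.27 and 0.16. Of 13 urothelial and epithelial markers, 12 in CAL-29 cells and 11 in 5637 cells reached 1 CPM (counts relative to library size, after TMM scaling), and the late differentiation marker UPK3A did so in neither line. Their summed mean level went from 13711 CPM with siCtrl to 6660 CPM with siKMT9α in CAL-29 cells and from 9121 to 6281 CPM in 5637 cells, mostly through abundant keratins. Not all markers went down: FOXA1 went from 66.3 to 141 CPM in CAL-29 cells and from 11.3 to 17.1 CPM in 5637 cells. TP63 went from 125 to 161 CPM in 5637 cells but from 207 to 127 CPM in CAL-29 cells. KRT7 and PPARG went up in CAL-29 cells (77.4 to 94.2 and 24.2 to 28.1 CPM) and down in 5637 cells. The part of these shifts in the results below was not tested. Of 9 markers of other bladder cell types, 1 to 3 reached 1 CPM in a group, with a summed level between 5.60 and 8.64 CPM. CD3E and DES were at or near 0 in all groups.

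In 5637 cells the transcripts of NOTCH1, JAG1, HES1, HEY1, MAML1 and NRARP rose with siKMT9α and those of NOTCH3 and JAG2 fell. In CAL-29 cells NRARP rose, while JAG1 and JAG2 fell. A DEG was a gene with an unadjusted p below 1e-06 in edgeR's quasi-likelihood test, the threshold of the paper's methods, and 8 of the 10 genes were DEGs in 5637 cells, where 35.4% of 14367 genes tested were (17.9% higher and 17.5% lower). In CAL-29 cells 3 of 10 were DEGs, against 29.9% of 14682 genes tested (14.9% higher and 15% lower). The 3 DEGs of CAL-29 cells were DEGs in 5637 cells too, NRARP and JAG2 in the same direction and JAG1 in the opposite one, and 18.6% of the 13699 genes tested in both lines were DEGs in both. At a Benjamini-Hochberg adjusted p below 0.05, 9 of 10 genes passed in 5637 cells (7 higher, 2 lower) and 8 of 10 in CAL-29 cells (4 higher, 4 lower), against 70.6% and 69.5% of all genes tested. The siKMT9α and siCtrl libraries did not overlap for 8 of 10 genes in each line, against 72.3% of all genes in each line. The median log2 fold change of the 10 genes was 0.47 in 5637 cells (all genes tested, -0.01) and -0.03 in CAL-29 cells (all genes tested, -0.02). The CAL-29 count was sensitive to single libraries: 6 genes were DEGs without siCtrl replicate 1, 5 without siCtrl replicate 3 and 2 without siCtrl replicate 2 or any 1 of the siKMT9α libraries. It was 7 without the filter on low counts, where NOTCH2, NOTCH3, HES1 and MAML1 were DEGs in addition, and 5 with DESeq2. In bulk RNA, a change in the make-up of the cell population and a change in RNA per cell cannot be told apart.

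**Figure D1:**
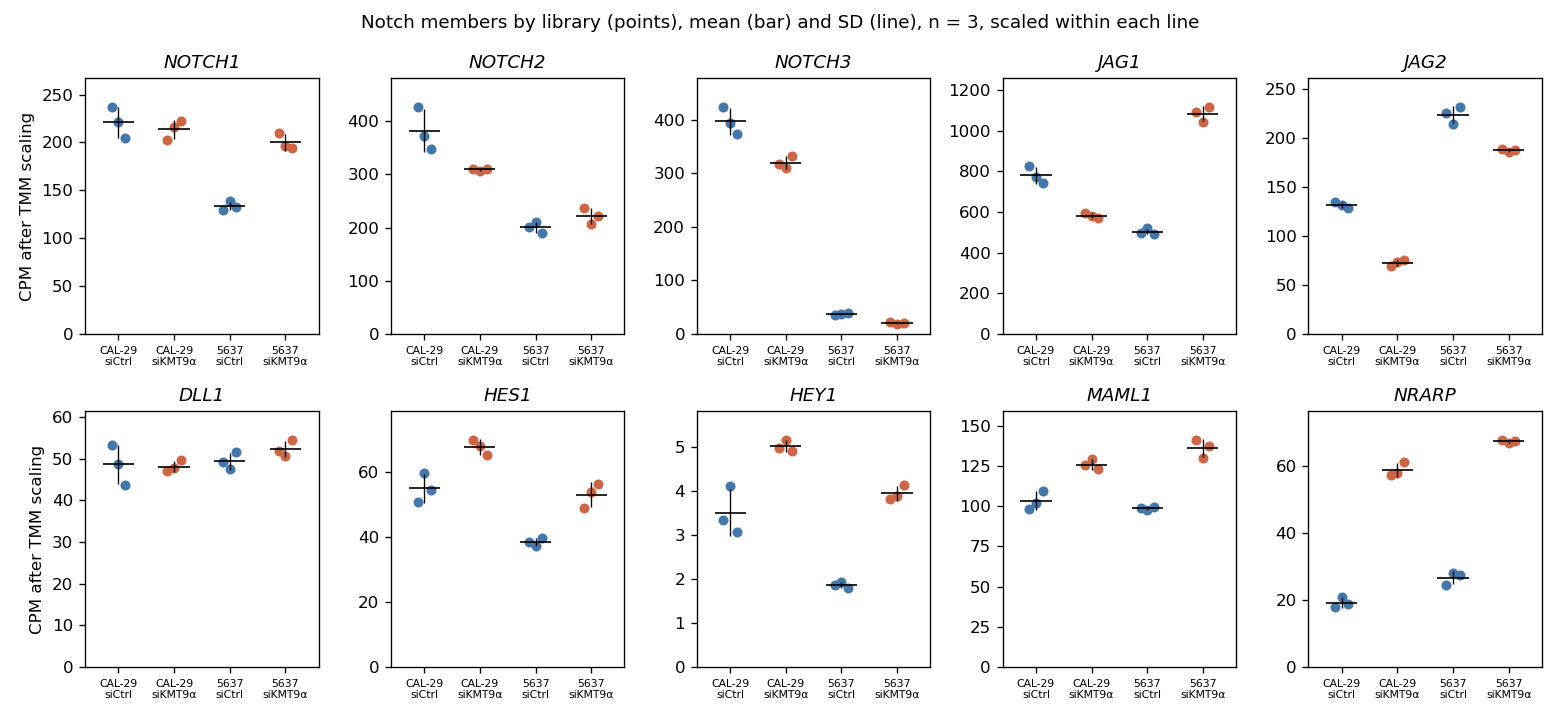
Level of each of the 10 Notch genes (y axis, CPM after TMM scaling within each line, from 0) in every library of the 4 groups (x axis), with points for libraries, a bar for the mean and a line for the SD over 3 libraries. The JAG1 points lie lower with siKMT9α in CAL-29 cells and higher in 5637 cells, whereas the NRARP points lie higher in both lines.

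NOTCH1 (NM_017617, minus strand of chromosome 9 of GRCh37, 139388885 to 139440500) encodes a receptor that is used in many epithelia. In 5637 cells it had 130.0, 138.6 and 132.5 CPM with siCtrl and 210.0, 196.3 and 194.1 CPM with siKMT9α. All siKMT9α libraries lay above all siCtrl libraries, and the log2 fold change was 0.58 (SE 0.04, edgeR adjusted p = 3.75e-14), a 1.50-fold rise. CAL-29 cells had 237.2, 221.5 and 204.2 CPM with siCtrl and 202.9, 215.9 and 222.2 CPM with siKMT9α. These groups overlapped, and the log2 fold change was -0.05, with a 95% interval from -0.16 to 0.07 (edgeR adjusted p = 0.441). Its sign turned to 0.03 when libraries were scaled by total counts and to 0.01 without siCtrl replicate 1.

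NOTCH3 (NM_000435, minus strand of chromosome 19 of GRCh37, 15269849 to 15311806), a receptor known best from vascular smooth muscle, was lower with siKMT9α in both lines. In 5637 cells it had 36.3, 36.6 and 38.8 CPM with siCtrl and 22.5, 18.8 and 20.6 CPM with siKMT9α. The groups were separate and the gene fell by 0.85 on the log2 scale (SE 0.06, edgeR adjusted p = 6.74e-13), 1.81-fold. In CAL-29 cells its level was far higher, with 423.8, 393.7 and 373.3 CPM in the siCtrl libraries and 316.8, 309.5 and 332.8 CPM in the siKMT9α libraries. The groups were separate here too, with a log2 fold change of -0.31 (SE 0.05, edgeR adjusted p = 2.09e-05), which did not reach the DEG threshold. It passed the threshold without siCtrl replicate 1 (log2 fold change -0.26) or 3 (-0.35), with DESeq2 (-0.30) and without the filter on low counts (-0.30).

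NOTCH2 (NM_024408, minus strand of chromosome 1 of GRCh37, 120454176 to 120643366) was a DEG in neither line. CAL-29 cells had 426.9, 371.3 and 348.1 CPM with siCtrl and 310.7, 306.6 and 310.2 CPM with siKMT9α. All siKMT9α libraries lay lower, with a log2 fold change of -0.31 (SE 0.06, edgeR adjusted p = 1.16e-04). This fall passed the DEG threshold without siCtrl replicate 1 (log2 fold change -0.22) or 3 (-0.36) and without the filter on low counts (-0.30). The values in 5637 cells were 200.7, 210.6 and 190.4 CPM with siCtrl and 236.3, 206.8 and 222.5 CPM with siKMT9α. Here the groups overlapped in siCtrl replicate 2 and siKMT9α replicate 2, and the log2 fold change was 0.15 (SE 0.04, edgeR adjusted p = 0.0025). A further NOTCH2 transcript row, NM_001200001, had 114.2, 99.7 and 100.9 CPM with siCtrl and 98.7, 95.7 and 97.3 CPM with siKMT9α in CAL-29 cells. In 5637 cells this row had 58.9, 61.6 and 52.6 CPM with siCtrl and 66.6, 51.9 and 63.5 CPM with siKMT9α, with overlap. NOTCH2 shares sequence with the partial copies of the NOTCH2NL family, so its counts are uncertain. NOTCH2NLA was listed at 11.2 to 15.3 CPM in CAL-29 cells and 45.9 to 51.0 CPM in 5637 cells.

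The guide strand of an siRNA can also pair through positions 2 to 8 with 3′ UTRs of other transcripts, so the complement of these positions of siKMT9α#1, ACATTCA, was searched in the longest annotated 3′ UTR of each gene. It was present in 15.4% of 12408 genes tested in both lines that have a 3′ UTR of at least 50 bases. Among the 10 Notch genes only NOTCH2 held it, once and not in its shortest annotated 3′ UTR. The site overlaps by 6 bases CACATTC, the complement for siKMT9α#2, which was present in 13.8% of the genes and, among the 10, also in NRARP. The sites are shown as the matches among the 10 genes. They are given with the heptamer in capitals (GRCh37, minus strand, chr1:120454205-120454233 for NOTCH2 and chr9:140194165-140194193 for NRARP), and whether they are used was not tested.
NOTCH2, siKMT9α#1: gttataagttcACATTCAtacatttattt
NRARP, siKMT9α#2: agtttgtgcagCACATTCctgagtgtacg

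The 2 Jagged ligands moved apart in 5637 cells but both fell in CAL-29 cells, and JAG1 changed direction between the lines. JAG1 (NM_000214, minus strand of chromosome 20 of GRCh37, 10618332 to 10654647) encodes a ligand that is itself induced by Notch signalling in several tissues. In 5637 cells it had 498.8, 519.2 and 494.0 CPM with siCtrl and 1089.8, 1045 and 1117 CPM with siKMT9α. Every siKMT9α library was more than 500 CPM above the siCtrl libraries, and the gene rose 2.15-fold (log2 fold change 1.10, SE 0.03, edgeR adjusted p = 5.75e-22). CAL-29 cells had 824.6, 772.3 and 741.5 CPM with siCtrl and 594.0, 579.4 and 572.8 CPM with siKMT9α. The groups were again separate, and the gene fell by 0.42 on the log2 scale (SE 0.05, edgeR adjusted p = 2.49e-07), 1.34-fold. This fall kept its direction in all alternatives but was no longer a DEG without siCtrl replicate 2 (log2 fold change -0.42) or siKMT9α replicate 1, 2 or 3 (-0.43, -0.41 and -0.41), nor with scaling by total counts (-0.34). Of the exon bases of JAG1, 5.15% are shared with an unnamed gene on the opposite strand, and whether counting used strand is not given in the sources used here.

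JAG2 (NM_002226, minus strand of chromosome 14 of GRCh37, 105607319 to 105635161), the other Jagged ligand, fell in both lines. CAL-29 cells had 135.0, 131.6 and 128.5 CPM with siCtrl and 69.5, 73.4 and 75.5 CPM with siKMT9α. With no overlap, the gene fell by 0.86 on the log2 scale (SE 0.05, edgeR adjusted p = 2.21e-12), 1.81-fold. The values in 5637 cells were 225.3, 214.6 and 231.8 CPM with siCtrl and 188.5, 186.0 and 187.4 CPM with siKMT9α. The fall was smaller here, 1.20-fold (log2 fold change -0.26, SE 0.03, edgeR adjusted p = 1.19e-07), and it missed the DEG threshold without siKMT9α replicate 2 (log2 fold change -0.25) or 3 (-0.26). An unnamed gene on the same strand covers 8.12% of its exon bases.

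DLL1 (NM_005618, minus strand of chromosome 6 of GRCh37, 170591294 to 170615653), a Delta ligand, passed neither threshold in either line. CAL-29 cells had 53.3, 48.8 and 43.8 CPM with siCtrl and 47.1, 47.7 and 49.6 CPM with siKMT9α. In 5637 cells the levels were 49.1, 47.5 and 51.6 CPM with siCtrl and 52.0, 50.7 and 54.5 CPM with siKMT9α. The groups overlapped in both lines, with log2 fold changes of -0.01 (95% interval -0.15 to 0.12, edgeR adjusted p = 0.850) and 0.09 (95% interval -0.01 to 0.18, edgeR adjusted p = 0.104). FAM120B on the opposite strand covers 9.79% of its exon bases.

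MAML1 (NM_014757, plus strand of chromosome 5 of GRCh37, 179159823 to 179204284) encodes a Mastermind coactivator of the nuclear Notch complex. In 5637 cells it had 98.7, 97.6 and 99.6 CPM with siCtrl and 141.2, 130.1 and 137.6 CPM with siKMT9α, and it rose 1.38-fold without overlap (log2 fold change 0.47, SE 0.04, edgeR adjusted p = 4.65e-12). CAL-29 cells had 98.3, 102.1 and 109.6 CPM with siCtrl and 125.2, 129.2 and 122.9 CPM with siKMT9α. All siKMT9α libraries were higher, with a log2 fold change of 0.28 (SE 0.05, edgeR adjusted p = 3.80e-05), short of the DEG threshold but past it without siCtrl replicate 1 (log2 fold change 0.25), with scaling by total counts (0.36), with DESeq2 (0.29) and without the filter on low counts (0.29).

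Among the target genes, NRARP and HES1 are compared with their upstream sequence, since RBPJ binds DNA through the core TGGGAA. Of the 10 genes, 8 had an entry in the RefSeq promoter table (GRCh38.p14, 250 bases before to 50 after the start), and DLL1 and HEY1 were named only. On either strand TGGGAA was found in 24.0% of 35116 promoters, and in 3.80% at least 2 times. Its longer form GTGGGAA, which contains it, was found in 6.25%. HES1 held TGGGAA 2 times, starting 84 and 70 bases before the start of the gene, and GTGGGAA once, while the other 7 promoters, NRARP included, held neither in this window. The 250 bases upstream are given 5′ to 3′ with TGGGAA in capitals, for HES1 from the plus strand of chr3:194135898-194136147 and for NRARP from the minus strand of chr9:137302272-137302521, the target with the smaller and the target with the larger change. A match to these letters is a description of the sequence and no measure of binding.
HES1: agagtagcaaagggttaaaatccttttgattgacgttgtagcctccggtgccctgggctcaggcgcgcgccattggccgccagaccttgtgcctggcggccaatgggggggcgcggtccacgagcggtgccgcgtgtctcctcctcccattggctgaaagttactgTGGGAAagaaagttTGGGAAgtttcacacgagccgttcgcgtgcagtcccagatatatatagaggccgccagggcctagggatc
NRARP: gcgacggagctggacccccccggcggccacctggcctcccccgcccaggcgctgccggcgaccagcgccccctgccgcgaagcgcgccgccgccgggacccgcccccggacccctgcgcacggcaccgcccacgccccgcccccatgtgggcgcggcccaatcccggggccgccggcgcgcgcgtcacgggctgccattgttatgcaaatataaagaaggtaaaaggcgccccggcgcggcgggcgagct

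HES1 (NM_005524, plus strand of chromosome 3 of GRCh37, 193853937 to 193856521), a repressor of the basic helix-loop-helix class, had 38.3, 37.1 and 39.6 CPM with siCtrl and 48.9, 53.7 and 56.3 CPM with siKMT9α in 5637 cells. The groups were separate and the gene rose 1.38-fold (log2 fold change 0.47, SE 0.05, edgeR adjusted p = 4.63e-09). CAL-29 cells had 50.8, 59.6 and 54.3 CPM with siCtrl and 69.8, 67.8 and 65.0 CPM with siKMT9α. All siKMT9α libraries were higher, with a log2 fold change of 0.30 (SE 0.06, edgeR adjusted p = 1.36e-04) that reached the DEG threshold without the filter on low counts (0.31) but in no run that left out a library.

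NRARP (NM_001004354, minus strand of chromosome 9 of GRCh37, 140194083 to 140196723, a gene of 1 exon), a feedback regulator that binds the nuclear Notch complex, had the largest log2 fold change of the 10 genes in both lines. CAL-29 cells had 17.8, 20.9 and 18.7 CPM with siCtrl and 57.2, 57.9 and 61.0 CPM with siKMT9α. The values in 5637 cells were 24.3, 28.1 and 27.4 CPM with siCtrl and 67.7, 66.7 and 67.4 CPM with siKMT9α. The lowest siKMT9α library was above 50 CPM in each line and the highest siCtrl library below 30 CPM. The gene rose 3.06-fold in CAL-29 cells (log2 fold change 1.62, SE 0.07, edgeR adjusted p = 1.32e-14) and 2.53-fold in 5637 cells (log2 fold change 1.34, SE 0.05, edgeR adjusted p = 3.24e-19), and it was a DEG under every alternative. An unnamed gene on the opposite strand covers 2.76% of its exon bases.

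HEY1 (NM_001040708, minus strand of chromosome 8 of GRCh37, 80674606 to 80680092), a repressor related to the HES proteins, had the lowest counts, with means of 119 in CAL-29 cells and 86.3 in 5637 cells. In 5637 cells it had 1.87, 1.93 and 1.80 CPM with siCtrl and 3.82, 3.88 and 4.14 CPM with siKMT9α. It rose 2.12-fold without overlap (log2 fold change 1.08, SE 0.15, edgeR adjusted p = 3.29e-07), but missed the DEG threshold without siCtrl replicate 1 or 3 (log2 fold changes 1.09 and 1.06) or siKMT9α replicate 3 (1.05). CAL-29 cells had 3.34, 4.10 and 3.06 CPM with siCtrl and 4.97, 5.15 and 4.89 CPM with siKMT9α. Every siKMT9α library was higher, with a log2 fold change of 0.52 (SE 0.15, edgeR adjusted p = 0.0054), below the DEG threshold. For every gene whose groups were separate, the exact permutation test over 3 libraries against 3 gives a 2-sided p of 0.1, the smallest it allows.

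**Figure D2:**
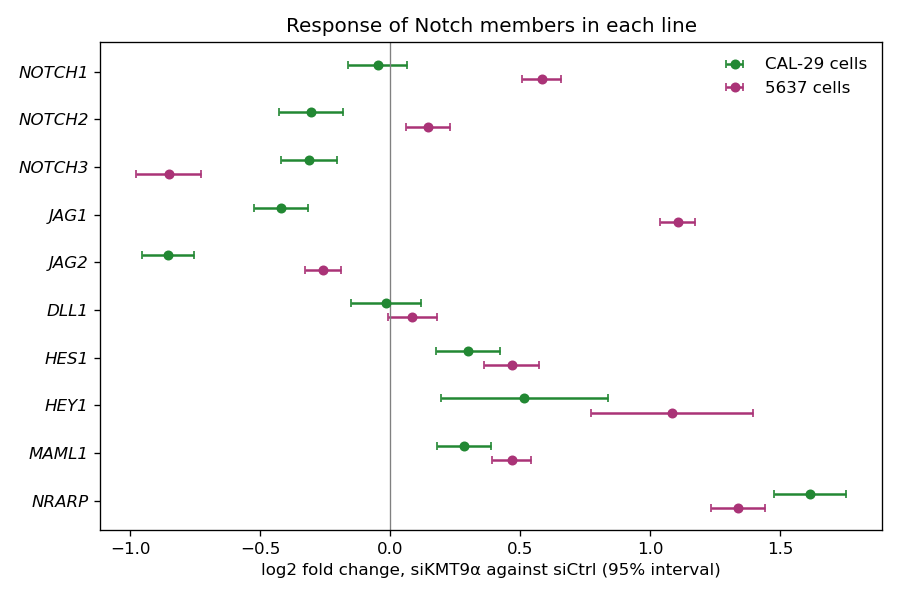
Log2 fold change of siKMT9α against siCtrl (x axis, with 95% intervals) for the 10 Notch genes (y axis) in CAL-29 cells (green) and 5637 cells (purple). JAG1 lies at -0.42 in CAL-29 cells and at 1.10 in 5637 cells, NOTCH1 at -0.05 and 0.58, and NRARP at 1.62 and 1.34.

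Whether the response itself differed between the lines was tested with the interaction of line and siRNA over all 12 libraries. It passed an adjusted p below 0.05 for 8 of the 10 genes, against 50.3% of the 15411 genes tested. The largest difference was that of JAG1, whose log2 fold change was 1.51 higher in 5637 than in CAL-29 cells (SE 0.06, edgeR adjusted p = 7.16e-18), with opposite directions in the lines. NOTCH2 also had opposite signs, with a difference of 0.43 (edgeR adjusted p = 3.49e-05). For NOTCH1 the difference was 0.61 (edgeR adjusted p = 1.46e-08). The falls of JAG2 and NOTCH3 were shared but unequal: JAG2 fell less in 5637 cells (difference 0.58, edgeR adjusted p = 2.50e-09) and NOTCH3 fell more (difference -0.56, edgeR adjusted p = 9.37e-07). NRARP rose less in 5637 cells (difference -0.29, edgeR adjusted p = 0.0051). The differences of HEY1 (0.55, edgeR adjusted p = 0.0313) and MAML1 (0.17, edgeR adjusted p = 0.0278) were lost when libraries were scaled by total counts (adjusted p = 0.0853 and 0.528). They were also lost without single libraries: for HEY1 without CAL-29 siCtrl replicate 2, CAL-29 siKMT9α replicate 3, 5637 siCtrl replicate 1 or 3 or 5637 siKMT9α replicate 3, with adjusted p up to 0.119. For MAML1 this held without CAL-29 siCtrl replicate 3, CAL-29 siKMT9α replicate 1 or 3, 5637 siCtrl replicate 2 or 5637 siKMT9α replicate 1 or 3, with adjusted p up to 0.114. HES1 (difference 0.15, 95% interval -0.02 to 0.32, edgeR adjusted p = 0.131) and DLL1 (difference 0.08, 95% interval -0.08 to 0.25, edgeR adjusted p = 0.413) did not pass, but HES1 did without CAL-29 siCtrl replicate 1 (adjusted p = 0.0267) or 5637 siKMT9α replicate 1 (adjusted p = 0.0460).

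The lines also started from different levels. With siCtrl, 8 of the 10 genes differed between the lines at an adjusted p below 0.05, against 85.3% of all genes tested. NOTCH3 was 10.2-fold lower in 5637 cells, with 37.2 to 39.5 CPM against 364 to 411 CPM in CAL-29 cells on the joint scaling (log2 difference -3.34, SE 0.05, edgeR adjusted p = 7.56e-29). NOTCH1, NOTCH2, JAG1, HES1 and HEY1 were lower in 5637 cells as well, with log2 differences of -0.66, -0.86, -0.56, -0.45 and -0.84. JAG2 (log2 difference 0.84, edgeR adjusted p = 2.35e-17) and NRARP (log2 difference 0.54, edgeR adjusted p = 1.13e-08) were higher in 5637 cells. DLL1 (log2 difference 0.09, 95% interval -0.02 to 0.21) and MAML1 (log2 difference 0.00, 95% interval -0.09 to 0.09) did not pass, though DLL1 did without CAL-29 siCtrl replicate 1 (log2 difference 0.17, edgeR adjusted p = 0.0076).

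Levels of different genes were compared as CPM per kilobase of the MANE Select transcript. JAG1 had the highest level and HEY1 the lowest in all 4 groups. In CAL-29 cells with siCtrl, JAG1 had 128 ± 6.61 CPM per kilobase (SD, n = 3), followed by NOTCH3 with 44.5, HES1 with 33.9, NOTCH2 with 32.5, NOTCH1 with 22.5, JAG2 with 22.2, MAML1 with 17.5, DLL1 with 12.5, NRARP with 7.05 and HEY1 with 1.55. The neighbours HES1 and NOTCH2, and NOTCH1 and JAG2, overlapped between libraries, and the other neighbours did not. In 5637 cells with siCtrl, JAG1 had 86.6 ± 2.22 CPM per kilobase (SD, n = 3), followed by JAG2 with 39.6, HES1 with 24.8, NOTCH2 with 17.9, MAML1 with 17.5, NOTCH1 with 14.3, DLL1 with 13.3, NRARP with 10.3, NOTCH3 with 4.38 and HEY1 with 0.866. Here NOTCH2 overlapped with MAML1, and NOTCH1 with DLL1. NOTCH3 thus took place 2 of the order in CAL-29 cells and place 9 in 5637 cells. With siKMT9α, JAG1 went to 96.5 CPM per kilobase in CAL-29 cells and to 186 in 5637 cells, and NRARP moved from place 8 to place 4 in 5637 cells. In CAL-29 cells NRARP moved from place 9 to places 5 to 7, where its libraries overlapped with those of NOTCH1 and MAML1.

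**Figure D3:**
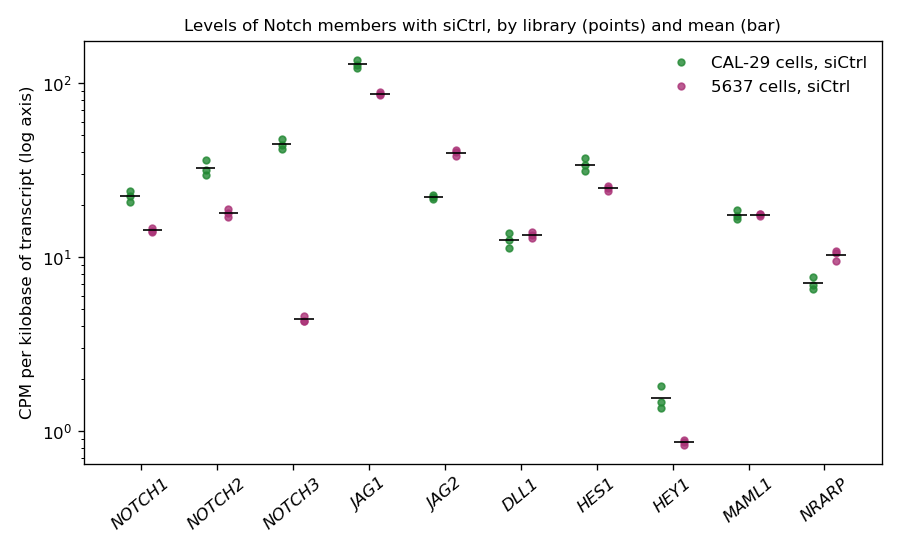
Level of the 10 Notch genes with siCtrl as CPM per kilobase of transcript (y axis, log scale) in CAL-29 cells (green) and 5637 cells (purple), with points for the 3 libraries and a bar for their mean. NOTCH3 stands at 44.5 in CAL-29 cells but at 4.38 in 5637 cells, whereas MAML1 stands at 17.5 in both.

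Of 54 other genes of the pathway, 46 were tested in each line. In CAL-29 cells 7 were DEGs with a higher and 9 with a lower level, and in 5637 cells 14 and 10 (all genes tested, 29.9% and 35.4% in either direction). At an adjusted p below 0.05, 18 were higher and 17 lower in CAL-29 cells, and 23 were higher and 17 lower in 5637 cells (all genes tested, 69.5% and 70.6%). The median log2 fold change was 0.03 and 0.07. Of 44 genes tested in both lines, 12 were DEGs in both: 4 rose in both lines (POFUT1, ADAM17, ITCH and SPEN), 7 fell in both (RBPJ, APH1B, NEURL1B, LFNG, HES2, NUMBL and DTX3) and FURIN went in opposite directions. Of the 13699 genes tested in both lines, 8.39% rose in both, 8.43% fell in both and 1.74% went in opposite directions as DEGs. POFUT1, NUMBL and DTX3 were named after their values were seen. Among the receptor and ligand genes not in the main group, 4 of 6 were tested in each line. The Delta ligand DLL4 was higher in both without being a DEG (log2 fold changes 0.60 and 1.14, edgeR adjusted p = 0.0211 and 5.00e-05). It was low, at 1.92 and 0.901 CPM with siCtrl. DLL3 was higher in CAL-29 cells (0.84, edgeR adjusted p = 0.0058) and not tested in 5637 cells. DLL4 and DLL3 were named after their values were seen. DNER, a noncanonical ligand, was near 0 in CAL-29 cells (0.695 CPM with siCtrl). It rose from 20.2 to 52.2 CPM in 5637 cells (log2 fold change 1.37, edgeR adjusted p = 2.70e-19). DLK2 fell by 0.59 on the log2 scale in 5637 cells. In CAL-29 cells DLK2 was higher, without being a DEG (log2 fold change 0.25, edgeR adjusted p = 0.0445).

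In 5637 cells the 3 largest changes of the wider list were the falls of NEURL1B, APH1B and RBPJ. In CAL-29 cells RBPJ fell most, followed by HEYL (log2 fold change -1.81, at 1.08 CPM with siCtrl and not a DEG), APH1B, MFNG and NEURL1B. HEYL was named after its values were seen. RBPJ, the DNA-binding partner of all Notch receptors, had 64.5, 61.5 and 61.5 CPM with siCtrl and 16.7, 17.0 and 15.3 CPM with siKMT9α (CAL-29 cells). The values in 5637 cells were 40.6, 40.6 and 39.7 CPM with siCtrl and 12.1, 11.9 and 10.6 CPM with siKMT9α. The groups lay far apart in both lines, with log2 fold changes of -1.93 (SE 0.06, edgeR adjusted p = 2.85e-16) and -1.81 (SE 0.06, edgeR adjusted p = 4.04e-20), and the interaction did not pass (difference 0.11, edgeR adjusted p = 0.314). At an adjusted p below 0.05, NRARP, HES1 and HEY1 were higher in both lines, whereas HES2 and HES4 were lower in both (HES4 log2 fold changes -0.34 and -0.12). HES4 was named after its values were seen. The annotation holds processed copies of RBPJ as pseudogenes, so its counts are uncertain. Of the other 5 tested genes of the nuclear complex, the acetyltransferases KAT2B and EP300 rose in 5637 cells (log2 fold changes 0.60 and 0.47). None of the 5 was a DEG in CAL-29 cells. There EP300 was higher at an adjusted p below 0.05 (log2 fold change 0.19, edgeR adjusted p = 0.0033), and KAT2B did not pass (0.15, edgeR adjusted p = 0.252).

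APH1B, a γ-secretase subunit, fell from 27.4 ± 2.04 to 8.41 ± 1.12 CPM (SD, n = 3) in CAL-29 cells and from 10.3 ± 0.659 to 2.03 ± 0.418 CPM (SD, n = 3) in 5637 cells, with log2 fold changes of -1.70 and -2.33. NEURL1B, a ubiquitin ligase for Notch ligands, fell from 167.7 to 60.4 CPM and from 26.4 to 4.09 CPM, with log2 fold changes of -1.47 and -2.68 (edgeR adjusted p = 1.02e-15 and 4.47e-20). ADAM17, a sheddase that can cut Notch receptors, rose from 114 to 171 CPM in CAL-29 cells and from 83.6 to 166 CPM in 5637 cells (log2 fold changes 0.59 and 0.99). FURIN, the convertase that matures the receptors, fell by 0.77 on the log2 scale in CAL-29 cells and rose by 0.22 in 5637 cells. Of the 9 cleavage genes 4 were DEGs in each line, 2 higher in CAL-29 cells and 3 higher in 5637 cells. Of all genes tested, 29.9% and 35.4% were DEGs in these lines. NEURL1 and MIB1, further ligases of ligand endocytosis, had log2 fold changes of 1.40 and -0.44 in 5637 cells, and MIB1 was not a DEG in CAL-29 cells, where NEURL1 was not tested.

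Of the 5 genes of receptor glycosylation, 2 were lower and 1 was higher in each line among the DEGs. LFNG, a Fringe enzyme that changes which ligands a receptor answers to, fell from 120 to 57.4 CPM in CAL-29 cells and from 87.6 to 56.7 CPM in 5637 cells (log2 fold changes -1.06 and -0.63). MFNG, another Fringe, fell by 1.63 on the log2 scale in CAL-29 cells, at 3.90 CPM with siCtrl. In 5637 cells it was lower too, without being a DEG (-0.96, edgeR adjusted p = 0.0176, 0.702 CPM with siCtrl). POGLUT1 fell by 0.77 in 5637 cells and did not pass in CAL-29 cells (-0.04, edgeR adjusted p = 0.724). Among 7 genes of receptor turnover, the E3 ligase ITCH rose in both lines (log2 fold changes 0.38 and 0.69). The Deltex genes DTX2 and DTX4 rose in CAL-29 cells (1.01 and 0.72) and had log2 fold changes of 0.09 and -0.19 in 5637 cells, where they were not DEGs (interaction, edgeR adjusted p = 3.62e-12 and 2.28e-12). All 7 corepressors were tested: SPEN rose in both lines (0.57 and 0.74), and TLE1 rose in 5637 cells (0.48). In CAL-29 cells TLE1 was lower, without being a DEG (-0.19, edgeR adjusted p = 0.0098). Its interaction had an edgeR adjusted p of 1.34e-08. Of the other HES and HEY genes, HES2 fell in both lines (-1.21 and -0.63), and HES3, HES5 and HEY2 had too few counts to be tested in either line.

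**Figure D4:**
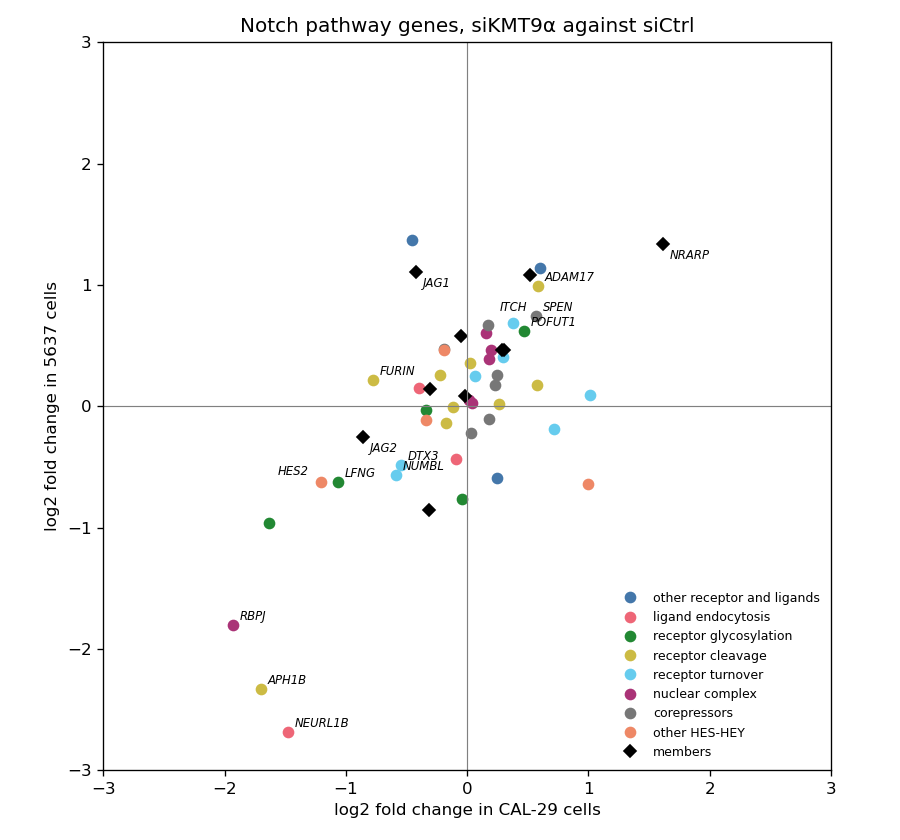
Log2 fold change of siKMT9α against siCtrl in CAL-29 cells (x axis) and 5637 cells (y axis) for the 10 Notch genes (black diamonds) and the 44 other pathway genes tested in both lines (circles, coloured by role), with names for genes that were DEGs in both lines. RBPJ, APH1B and NEURL1B lie at the lower left, NRARP at the upper right, and JAG1 and FURIN above 0 in 5637 cells and below 0 in CAL-29 cells.

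The heptamer ACATTCA was present in the longest 3′ UTR of 4 of the 44 other genes, against 15.4% of the 12408 genes searched. It occurred once in APH1B, ADAM17 and ITCH and 2 times in RBPJ. Their longest 3′ UTRs have 2799 to 4124 bases, where the median of the 12408 genes is 1521. Of the 7 genes that fell in both lines ACATTCA was in 2, RBPJ and APH1B. Of the 4 that rose in both lines it was in 2, ADAM17 and ITCH. The sites in RBPJ and APH1B, the genes with the largest falls that hold it, are given from the plus strand of GRCh37 (chr4:26433135-26433163, chr4:26433490-26433518 and chr15:63599324-63599352). The RBPJ sites are not in its shortest annotated 3′ UTR, which has only 59 bases. APH1B had 1 transcript with a 3′ UTR in the search, so its shortest and longest are the same and no such comparison is possible. CACATTC, the complement for siKMT9α#2, was in the longest 3′ UTR of MIB1, POFUT1, APH1A, DTX4 and FBXW7. Of these only POFUT1 was a DEG in both lines, and it rose. CACATTC was present in 13.8% of the 12408 genes. Whether pairing of the siRNA takes part in the falls was not tested, since the libraries hold 1 siRNA against KMT9α.
RBPJ, first site: tgctctaaaatACATTCAggttccaagcc
RBPJ, next site: gagaggttctaACATTCAcatgcaatttg
APH1B: catgcagtagaACATTCAgaagagaggag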

How the data were processed

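RNA from CAL-29 and 5637 cells was sequenced on day 3 after transfection, with 3 libraries per siRNA and line (12 in all), grouped by sample title. Replicate numbers were those of the titles, from which the descriptions differ for siKMT9α. The authors aligned reads to hg19 (GRCh37) with STAR, counted them with HOMER and deposited raw estimated counts in steps of 0.5, with 1 row for each of 37400 RefSeq transcripts. The tables also hold fold changes and p-values of the authors' own tests, which were not used. The number of per-sample value columns left unmapped was 0.

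Per symbol, the row with the most counts over a line's libraries was kept and rounded to whole numbers, with 0.5 rounded up. In edgeR 4.0.16 (R 4.3.3) TMM scaling and filterByExpr were followed by the quasi-likelihood F test in each line alone, and Benjamini-Hochberg adjustment ran over all genes tested. DEGs had p below 1e-06. The interaction and the siCtrl levels came from 1 model of all 12 libraries. SEs are the log2 fold change divided by the square root of F. The fit was checked on simulated counts with known changes. Whether replicate numbers of the titles pair the libraries was not settled. Correlations of same-numbered deviations were between -0.01 and 0.15, and those of different numbers between -0.14 and 0.09. The highest in each line was that of siCtrl replicate 1 with siKMT9α replicate 1 (0.15 in CAL-29 cells and 0.13 in 5637 cells).

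All 10 members, N6AMT1 and TRMT112 were named, and of each list of other pathway genes up to 3: the DEGs of either line with the largest absolute log2 fold change and a mean count of at least 50. The result of 1 gene that this rule names is not reported here. The members and lists were chosen with earlier results of these data known. Heptamers were searched in GENCODE release 44 transcripts lifted to GRCh37, and promoters were taken from RefSeq (GRCh38.p14). Alternatives were other scalings, DESeq2 1.42.0, no filter, the replicate number as a term, the mean over transcript rows and each library left out. Intervals cover the spread between libraries. At 24479348.5 or more counts per library, that spread and not depth limits precision, except for HEY1.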

Additional observations from a re-analysis of the deposited data

Results flagged for a closer look

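For 8 of the 10 Notch genes, the log2 fold change with siKMT9α differed between the lines in edgeR's test of the interaction, given here as 5637 minus CAL-29 cells. This test passed for 50.3% of all 15411 genes. The differences were 1.51 for JAG1, 0.61 for NOTCH1, 0.58 for JAG2, 0.55 for HEY1, 0.43 for NOTCH2, 0.17 for MAML1, -0.29 for NRARP and -0.56 for NOTCH3. JAG1 and NOTCH2 were lower with siKMT9α in CAL-29 cells and higher in 5637 cells, and passed an adjusted p of 0.05 in both. For NOTCH2, the libraries of 5637 cells overlapped between the groups, and its counts are uncertain. NOTCH3, JAG2, HEY1, MAML1 and NRARP went the same way in both lines to different extents, and the differences of HEY1 and MAML1 were lost with scaling by total counts and without single libraries. The lines differed in reagent, siRNA concentration and medium as well, which cannot be told apart from the line.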

How the results depend on the processing

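Of 240 log2 fold changes of the 10 genes recomputed under the alternatives, 235 kept their direction, and the 5 that did not were those of NOTCH1 and DLL1 in CAL-29 cells, which passed no threshold. The number of DEGs among the 10 genes in CAL-29 cells (3, of which 1 higher and 2 lower) was the least stable count. With scaling by total counts it had 2 higher and 1 lower, and this scaling moved the median of all genes by 0.08 in CAL-29 cells and by -0.05 in 5637 cells. DESeq2 called 5, with 2 higher. Without the filter on low counts 7 were called, 3 higher and 4 lower. With the replicate block 7 were called as well, 3 higher and 4 lower, with NOTCH2, NOTCH3, HES1 and MAML1 in addition, although the numbers share no source in the labels. Leaving out each library gave 2 to 6 in all, 1 to 2 higher and 1 to 4 lower. In 5637 cells the count was 8 under every setting other than leave-one-out, which gave 6 to 8 in all, 5 to 6 higher and 1 to 2 lower. The replicate block was not run for the siCtrl levels. The counts of other pathway genes ranged from 12 to 19 (CAL-29) and from 17 to 30 (5637). Genes with different responses in the lines numbered 6 to 9, and genes with different siCtrl levels 8 to 9. The causes of the changes were not tested, and low counts limit HEY1 and some genes of the wider list.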
